A study of Mus musculus with 4 samples.

Results

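Iron handling genes of mouse peritoneal macrophages were compared between 2 genotypes. The members were 10 named genes, matched by symbol: the uptake and metal transporter genes Tfrc, Slc11a2 and Slc11a1, the ferritin genes Fth1 and Ftl1, the exporter gene Slc40a1, the ferroxidase gene Cp, the heme pathway gene Blvrb, and Aco1 and Ireb2, which encode the iron regulatory proteins. All 10 were found, each on a single locus, among 23735 loci of the table. The Ch25h_WT group carried the genotype ApoE-/-/Ch25h+/+ and the Ch25h_KO group ApoE-/-/Ch25h-/-, so both groups were labelled as lacking apolipoprotein E, and they differed by label only in Ch25h, the gene of cholesterol 25-hydroxylase. The mice were C57BL/6 and 6 weeks old, and received 3% thioglycolate, a sterile irritant that draws macrophages into the peritoneal cavity, 3 days before collection. The cells were then cultured without a further treatment named in the labels. Each group held 2 libraries, drawn from 12 mice per group, and how mice were divided between libraries is not given. With n = 2 libraries per group, every p-value rests on how much those libraries vary, and part of that may be technical.

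Macrophages take in iron through the transferrin receptor (Tfrc) and by digesting red cells and debris, store it in ferritin shells of heavy (Fth1) and light (Ftl1) chains, and return it to plasma through ferroportin (Slc40a1), the known cellular iron exporter. When cytosolic iron is low, the iron regulatory proteins bind hairpins called iron-responsive elements. Binding in the 5′ UTR blocks translation of ferritin and ferroportin mRNA, while binding in the 3′ UTR of Tfrc mRNA protects it from decay. RNA levels therefore bear on Tfrc control by these proteins but do not show ferritin or ferroportin protein.

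The hairpins are shown because they are the sequence feature through which some of the members are known to respond to iron. GENCODE vM21 (GRCm38) protein-coding transcripts were searched on the sense strand for an unpaired C, a 5-base stem, the 6-base loop CAGTGN with a last base other than G, and a second stem paired to the first by Watson-Crick or G-T pairs. Capitals mark the loop, and each site is printed 5′ to 3′ as DNA with 29 bases.
Fth1, 5′ UTR of transcript Fth1-201, chromosome 19: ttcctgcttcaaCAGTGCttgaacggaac
Ftl1, 5′ UTR of transcript Ftl1-201, chromosome 7: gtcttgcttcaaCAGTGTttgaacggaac
Slc40a1, 5′ UTR of transcript Slc40a1-201, chromosome 1: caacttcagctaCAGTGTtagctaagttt
Tfrc, 3′ UTR of transcript Tfrc-201, chromosome 16, site a: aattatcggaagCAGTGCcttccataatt
Tfrc, site b: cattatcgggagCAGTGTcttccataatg
Tfrc, site c: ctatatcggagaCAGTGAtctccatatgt
Tfrc, site d: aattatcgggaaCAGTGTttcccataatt
Slc11a2, 3′ UTR of transcript Slc11a2-205, chromosome 15: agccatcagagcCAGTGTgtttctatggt

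The unpaired C stood at base 93 of 929 in Fth1-201, base 84 of 968 in Ftl1-201 and base 96 of 3370 in Slc40a1-201. In Tfrc-201 the unpaired C of the 4 sites stood at bases 3321, 3700, 3765 and 3812 of 4890. The Slc11a2-205 site, with the C at base 1803 of 4415, paired at 4 of 5 stem positions and so did not meet the full pattern. Of 21877 protein-coding genes, 0.105% held a full match in a 5′ UTR and 0.457% in a 3′ UTR, whatever the length of the UTR. The remaining members, Slc11a1, Cp, Blvrb, Aco1 and Ireb2, had no match in a UTR, even at 4 of 5 stem positions. A match is a description of the letters. Slc11a2 has transcripts with and without this 3′ end, and the table, with 1 value per locus, does not tell them apart.

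Values are FPKM, fragments per kilobase of transcript scaled to the mapped fragments of a library, which allow levels of different genes to be set side by side. Each library listed 13813 to 13970 loci above 0, at an implied depth of about 9710000 to 12610000 fragments. The 2 Ch25h_WT libraries had Ch25h at 63.3 and 65.3 FPKM, and the 2 Ch25h_KO libraries had it at 4.25 and 5.53 FPKM. Apoe, labelled absent throughout, was 614 and 610 FPKM against 3683 and 3373 FPKM, so the groups also differed at a locus their labels share. The log2 change of Apoe was 2.52 (limma adjusted p = 0.0013). The macrophage label was checked against 8 markers (Emr1, Itgam, Csf1r, Cd68, Mertk, Fcgr1, Lyz2 and Msr1). None was at 0. Lyz2 made up most of their summed level, which was 21877 to 22739 FPKM in Ch25h_WT and 21624 to 22209 FPKM in Ch25h_KO. Groups did not overlap for 4 of the 8, with Fcgr1 higher in Ch25h_KO and Emr1, Csf1r and Msr1 lower. Over the 10074 loci averaging 1 FPKM or more, 53.7% did not overlap, with 23.4% higher and 30.3% lower. Msr1 was 330 and 355 FPKM in Ch25h_WT and 277 and 274 FPKM in Ch25h_KO (log2 change -0.31, limma adjusted p = 0.111).

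The 10 genes differed widely in level, and RNA of the storage genes stood far above RNA of the uptake and export genes. Fth1 ranked 2 and Ftl1 ranked 4 among all loci in every library. Together the ferritin chains held 6.55% to 6.77% of the summed FPKM of a library. Slc40a1, at the other end, was under 1 FPKM in all 4 libraries and ranked between 10035 and 10466. The order by mean level was Fth1, Ftl1, Slc11a1, Blvrb, Slc11a2, Cp, Aco1, Ireb2, Tfrc and Slc40a1. Neighbours in this order did not overlap over the 4 libraries, except Slc11a2 and Cp, whose ranges did.

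**Figure D1:**
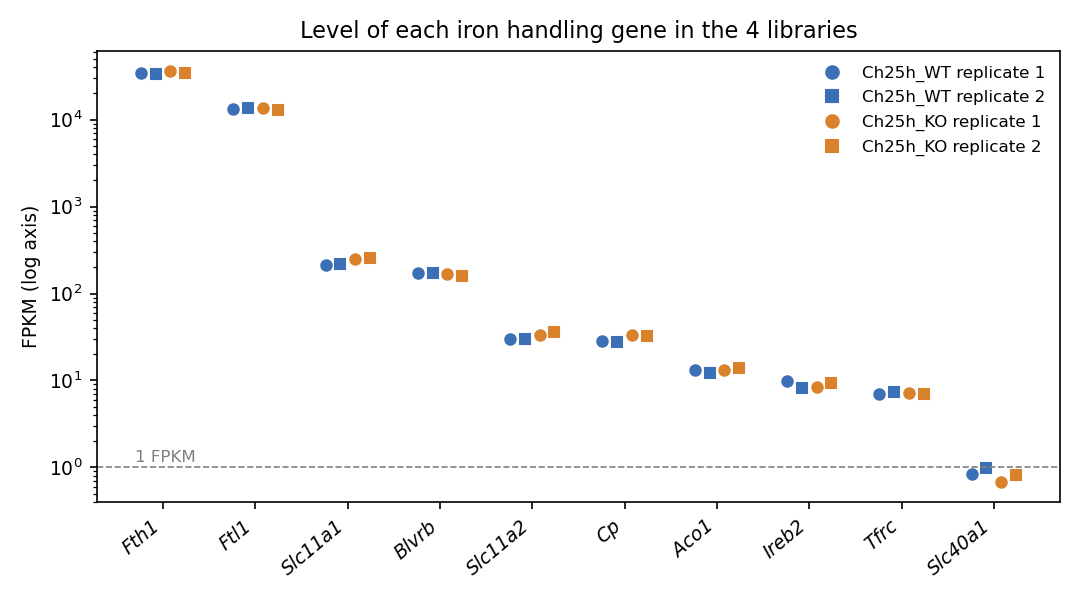
FPKM of each iron handling gene on a log axis, with 1 point per library (blue Ch25h_WT, orange Ch25h_KO; circle replicate 1, square replicate 2) and a dashed line at 1 FPKM. The ferritin genes Fth1 and Ftl1 lie at 12770 FPKM or above in every library, and Slc40a1 is the gene below the line.

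The comparison between genotypes asked whether these levels differed with the Ch25h label, on a background shared by label only. The part of the difference at Apoe was not tested. None of the genes tested passed. Differences were tested with limma on log2(FPKM + 1) over the 10074 loci that averaged 1 FPKM or more, and a gene was called at a Benjamini-Hochberg adjusted p under 0.05 over all of these loci. Of the 10 genes, 9 passed the filter and 0 were called, where 44 loci, or 0.437% of all loci tested, were called. At unadjusted p under 0.05, 3 of the 9 were higher (Slc11a1, Slc11a2 and Cp) and 0 were lower, against 9.38% of all tested loci higher and 11.5% lower. The median log2 change of the 9 was 0.060, against -0.014 over all tested loci. Groups did not overlap for 6 of the 9, of which 5 were higher and 1 lower in Ch25h_KO. The same held for 53.7% of all tested loci, with 23.4% higher and 30.3% lower.

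**Figure D2:**
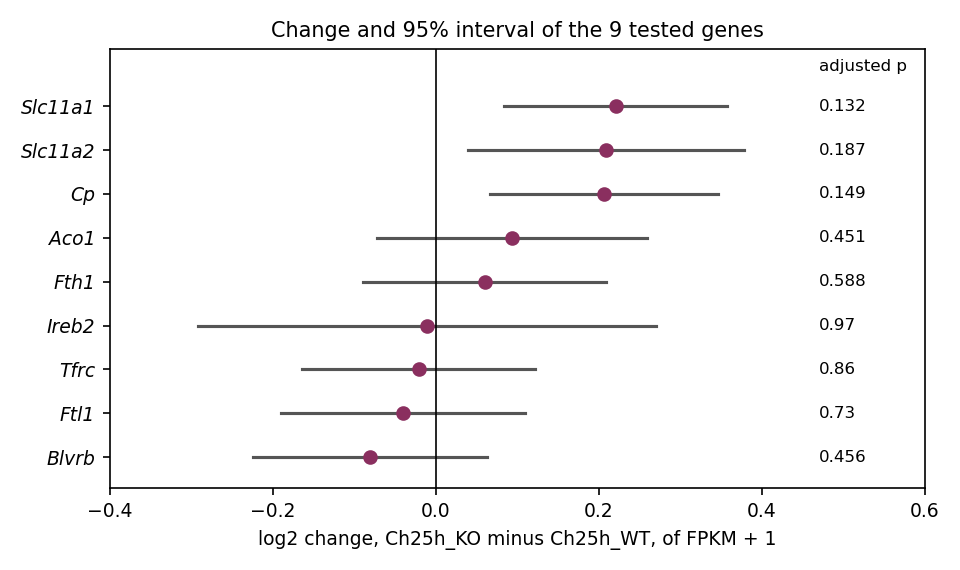
Difference in mean log2(FPKM + 1), Ch25h_KO minus Ch25h_WT, for the 9 genes tested (point) with the 95% confidence interval from limma (line) and the adjusted p. The intervals of Slc11a1, Slc11a2 and Cp lie above 0, with adjusted p of 0.132, 0.187 and 0.149, and those of the other 6 include 0.

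Slc11a1, Slc11a2 and Cp had log2 changes that lay within a standard error of each other. Slc11a1 encodes NRAMP1, which moves iron and manganese across the phagosome membrane of macrophages; C57BL/6 mice are known to carry an allele that impairs its function, so its RNA here is no measure of transport. Slc11a1 was 213 and 217 FPKM in Ch25h_WT and 248 and 253 FPKM in Ch25h_KO. Both Ch25h_KO libraries were above both Ch25h_WT libraries, and replicates lay within 1.02-fold of each other. The mean was 16.6% higher in Ch25h_KO, and the log2 change was 0.22 (SE 0.052, 95% interval 0.084 to 0.36, limma adjusted p = 0.132). When limma modelled the spread with its trend and robust options, Slc11a1 was called (adjusted p = 0.0088), and so was Cp, in a setting that called 786 loci, or 7.80% of those tested, with 4.04% called higher.

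Slc11a2 encodes DMT1, the proton-coupled carrier that moves iron out of endosomes after transferrin uptake. It was 29.7 and 30.4 FPKM in Ch25h_WT and 33.4 and 36.4 FPKM in Ch25h_KO. The groups did not overlap, and the Ch25h_KO libraries lay further apart than the Ch25h_WT libraries. The mean was 16.2% higher in Ch25h_KO, with a log2 change of 0.21 (SE 0.064, 95% interval 0.040 to 0.38, limma adjusted p = 0.187).

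Both carriers belong to a single family. The ratio of Slc11a1 to Slc11a2 was 7.19 and 7.13 in the Ch25h_WT libraries and 7.42 and 6.96 in the Ch25h_KO libraries. Here the Ch25h_KO libraries lay on either side of the Ch25h_WT libraries. The log2 difference was 0.0061 (exact permutation p = 1, two-sided, adjusted p = 1 over 5 ratios). An exact test of 2 libraries against 2 cannot give a p below 0.333.

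Tfrc, the receptor that brings transferrin-bound iron into the cell, was 7.03 and 7.35 FPKM in Ch25h_WT and 7.12 and 7.03 FPKM in Ch25h_KO. The groups overlapped. The log2 change was -0.021 (95% interval -0.16 to 0.12, limma adjusted p = 0.860), an interval that runs from 0.893-fold to 1.09-fold. Tfrc is the member with 4 full matches to the searched hairpin pattern in its 3′ UTR.

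**Figure D3:**
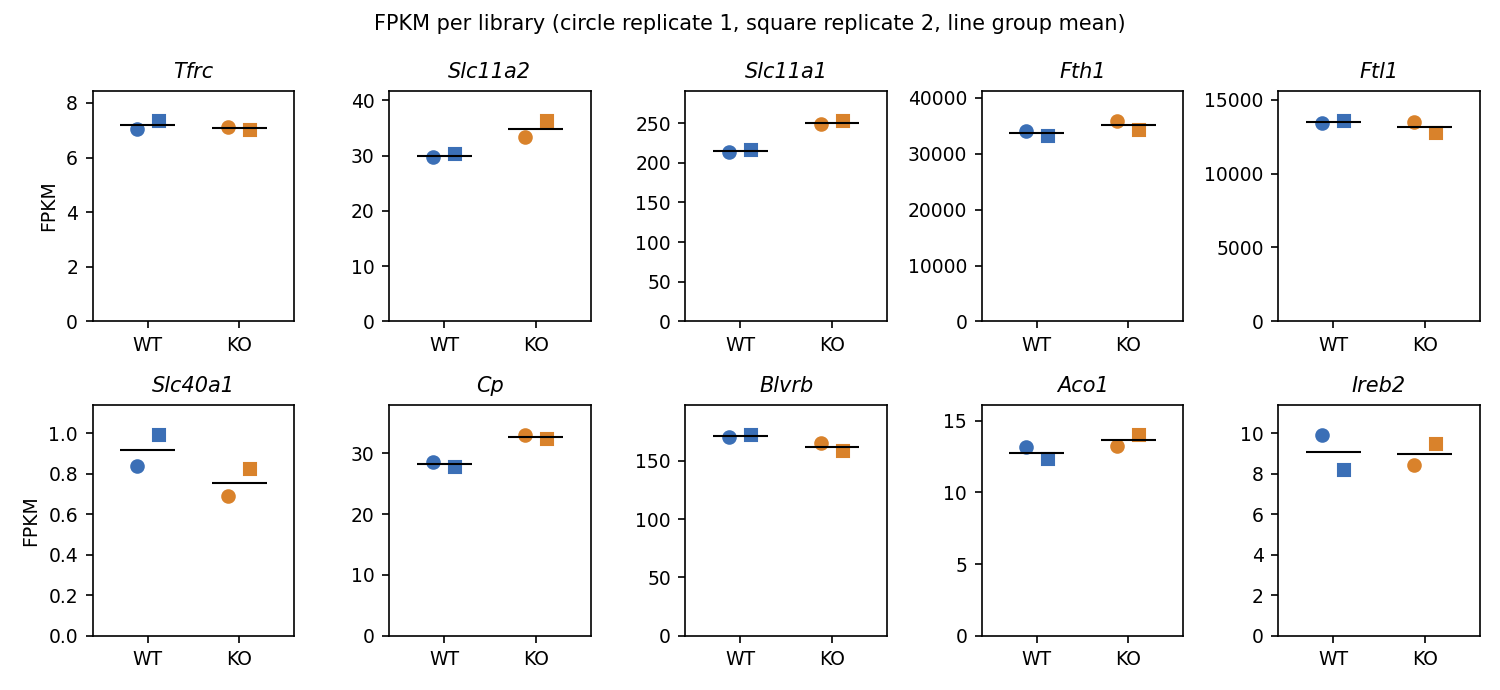
FPKM of each of the 10 genes in its own panel, on axes that start at 0, by group (circle replicate 1, square replicate 2, horizontal line group mean). Slc11a1, Slc11a2 and Cp sit higher in both Ch25h_KO libraries, and Tfrc, Ftl1 and Ireb2 overlap between the groups.

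The ferritin chains differed little. Fth1, whose product oxidises iron as it enters the shell, was 34046 and 33238 FPKM in Ch25h_WT and 35937 and 34216 FPKM in Ch25h_KO. The lower Ch25h_KO library stood just above the higher Ch25h_WT library. The log2 change was 0.060 (95% interval -0.090 to 0.21, limma adjusted p = 0.588). Ftl1, whose product helps to form the mineral core, was 13391 and 13577 FPKM in Ch25h_WT and 13473 and 12770 FPKM in Ch25h_KO. The groups overlapped, and the log2 change was -0.040 (95% interval -0.19 to 0.11, limma adjusted p = 0.730). Both genes have many processed copies in the mouse genome, so the authors' counting could have divided their fragments, which leaves the levels uncertain.

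Within a library, the ratio of heavy to light chain RNA was 2.54 and 2.45 in Ch25h_WT and 2.67 and 2.68 in Ch25h_KO. The 2 groups did not overlap. The ratio was 1.07-fold higher in Ch25h_KO, at the smallest p this design allows (exact permutation p = 0.333, two-sided, adjusted p = 0.556 over 5 ratios).

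Ferroportin RNA was scarce. Slc40a1 was 0.838 and 0.991 FPKM in Ch25h_WT and 0.688 and 0.824 FPKM in Ch25h_KO. The highest Ch25h_KO value lay just below the lowest Ch25h_WT value, and the values differed about as much within a group as between the groups. With a transcript of 3370 bases these levels correspond to about 36 and 34 fragments in Ch25h_WT and 24 and 27 in Ch25h_KO, so counting error alone is large. The gene was under the filter and had no part in the main test. Without the filter its log2 change was -0.13 (95% interval -0.32 to 0.069, limma adjusted p = 0.462). Set against storage in the same library, the log2 ratio of Slc40a1 to Fth1 was -15.3 and -15.0 in Ch25h_WT and -15.7 and -15.3 in Ch25h_KO. The log2 difference was -0.34 (exact permutation p = 0.333, two-sided, adjusted p = 0.556 over 5 ratios). It was -0.17 without Ch25h_KO replicate 1, -0.20 without Ch25h_WT replicate 2, -0.47 without Ch25h_WT replicate 1 and -0.50 without Ch25h_KO replicate 2, and -0.18 as a ratio of FPKM + 1. The log2 ratio of Tfrc to Fth1 was -12.2 and -12.1 against -12.3 and -12.2, with a log2 difference of -0.083 (exact permutation p = 0.333, two-sided, adjusted p = 0.556).

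Cp encodes ceruloplasmin, the copper enzyme that oxidises exported iron so that transferrin can bind it. It was 28.6 and 27.8 FPKM in Ch25h_WT and 33.03 and 32.36 FPKM in Ch25h_KO. The groups did not overlap and were tight. The mean was 15.9% higher in Ch25h_KO, and the log2 change was 0.21 (SE 0.053, 95% interval 0.066 to 0.35, limma adjusted p = 0.149). With the trend and robust options the adjusted p was 0.048. Cp has secreted and membrane-anchored splice forms, which a value per locus does not separate.

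Markers of other cells differed in the same libraries. The summed level of 11 neutrophil markers was 113 to 122 FPKM in Ch25h_WT and 166 FPKM in both Ch25h_KO libraries. Most of it was S100a8 and Csf3r, while Elane and Mpo were at most 0.13 and 0.061 FPKM in any library. Without overlap, S100a8, Csf3r, S100a9 and Ngp lay higher in Ch25h_KO, while Camp, Cxcr2 and Mpo lay lower. Camp was 0.906 and 1.36 FPKM in Ch25h_WT and 0.880 and 0.471 FPKM in Ch25h_KO. The sum of 10 erythroid loci was 31.9 to 34.9 FPKM against 45.1 to 47.8 FPKM, most of it globin RNA. The globin loci and Alas2 lay higher in Ch25h_KO without overlap, while Gata1 and Epor lay lower. The sum of 8 mesothelial and fibroblast markers was 1.39 to 1.53 against 3.94 to 4.79 FPKM, and 1 of them, Dcn, passed the filter. Dcn, Col3a1, Col1a1, Col1a2 and Krt19 lay higher in Ch25h_KO without overlap, while Msln, Upk3b and Lum overlapped. Sums for 7 B cell markers were 356 to 360 against 322 to 338 FPKM, and the groups overlapped for the sums of 7 T cell and 8 mast cell markers. The mast cell sum held genes that lay in opposite directions. Cpa3 was 31.6 and 31.0 against 20.2 and 17.9 FPKM and Tpsb2 was 58.7 and 61.2 against 35.4 and 39.5 FPKM, while Hdc, the histamine-forming enzyme, was 158 and 164 against 213 and 227 FPKM. At unadjusted p under 0.05, 11.5% of all tested loci were lower and 9.38% higher. Of 7 mast cell markers tested, 5 were lower and 1, Hdc, higher at that threshold, and 0 were called. The part of these cells in the differences at Slc11a1, Slc11a2 and Cp was not tested. In bulk RNA, fewer cells of a type and less RNA per cell cannot be told apart.

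Blvrb encodes biliverdin reductase B, a flavin reductase of the heme breakdown route. It was 171 and 172 FPKM in Ch25h_WT and 166 and 159 FPKM in Ch25h_KO. It was the tested member whose Ch25h_KO libraries both lay below both Ch25h_WT libraries. The mean was lower by 5.42% of the Ch25h_WT level, with a log2 change of -0.080 (95% interval -0.22 to 0.063, limma adjusted p = 0.456).

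The genes of both iron regulatory proteins stood above Tfrc and Slc40a1 and below the other members in level. Aco1 encodes IRP1, which is a cytosolic aconitase when it holds an iron-sulfur cluster and an RNA-binding protein when it does not. Aco1 was 13.1 and 12.3 FPKM in Ch25h_WT and 13.27 and 14.01 FPKM in Ch25h_KO, with a log2 change of 0.094 (95% interval -0.072 to 0.26, limma adjusted p = 0.451). The groups did not overlap, by a narrow margin. Ireb2 encodes IRP2, which is degraded when iron is plentiful, a control that RNA levels do not show. Ireb2 was 9.92 and 8.19 FPKM in Ch25h_WT and 8.45 and 9.46 FPKM in Ch25h_KO. Both Ch25h_KO values fell between the Ch25h_WT values, and the log2 change was -0.011 (95% interval -0.29 to 0.27, limma adjusted p = 0.970). This interval was the widest of the 9 and runs from 0.817-fold to 1.21-fold. The ratio of Aco1 to Ireb2 was 1.32 and 1.503 against 1.57 and 1.48, and the groups overlapped (log2 difference 0.11, exact permutation p = 0.667, two-sided, adjusted p = 0.833).

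Further genes of iron and heme biology were grouped in 5 lists with 76 loci, of which 57 were tested. None of the 57 was called with limma as set out above. With the trend and robust options 4 were called higher (Fdx1, Hp, Iscu and Lcn2) and 3 lower (Slc48a1, Spic and Trf), in the setting that called 7.80% of all loci. At unadjusted p under 0.05, 6 of the 57 were higher and 5 lower, and the median log2 change was 0.0047. Of all tested loci, 9.38% were higher and 11.5% lower at that threshold, 20.9% in all, which is the share to set beside each list's count. The 2 genes of smallest p are named for each list, with Slc48a1, Hmox1, Isca1 and Isca2 named after their values were seen.

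Of 7 tested genes of iron uptake and transferrin, 0 were higher and 1 lower at unadjusted p under 0.05, with a median log2 change of -0.12. Trf, transferrin itself, was 930 and 964 FPKM in Ch25h_WT and 837 and 854 FPKM in Ch25h_KO (log2 change -0.16, limma adjusted p = 0.204). Steap4, a metalloreductase, was 1.69 and 1.81 against 1.96 and 2.16 FPKM (log2 change 0.16, limma adjusted p = 0.257). The groups did not overlap for either gene, and they lay in opposite directions.

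Heme uptake, breakdown and export gave 1 higher and 2 lower of 11 tested at unadjusted p under 0.05, with a median log2 change of -0.058. Hp, haptoglobin, which captures free hemoglobin and is made by inflammatory myeloid cells, was 730 and 727 FPKM in Ch25h_WT and 928 and 879 FPKM in Ch25h_KO (log2 change 0.31, limma adjusted p = 0.110). Spic, the transcription factor of iron-recycling red pulp macrophages, was 4.47 and 4.32 against 2.96 and 2.02 FPKM (log2 change -0.64, limma adjusted p = 0.120). Slc48a1, which carries heme out of the phagolysosome, was 107 FPKM in both Ch25h_WT libraries and 90.6 and 94.0 FPKM in Ch25h_KO (log2 change -0.21, limma adjusted p = 0.150). The Ch25h_KO libraries lay on the higher side for Hp and on the lower side for Spic and Slc48a1, without overlap. Hmox1, heme oxygenase 1, which frees iron from heme, was abundant at 2398 and 2478 against 2347 and 2335 FPKM.

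None of 11 tested genes of heme synthesis had an unadjusted p under 0.05, and their median log2 change was -0.0027. Tmem14c, a mitochondrial protein needed for heme synthesis, was 81.3 and 82.0 against 87.3 and 87.1 FPKM (limma adjusted p = 0.362). Uros was 2.33 and 2.63 against 2.61 and 2.79 FPKM, with overlap (limma adjusted p = 0.506).

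Of 8 tested genes of iron chaperones, ferritin turnover and the hepcidin axis, 1 was higher and 1 lower at unadjusted p under 0.05 (median log2 change 0.0050). Lcn2, lipocalin 2, which binds bacterial iron carriers, was 178 and 186 FPKM in Ch25h_WT and 245 and 239 FPKM in Ch25h_KO (log2 change 0.41, limma adjusted p = 0.078). Ncoa4, the receptor that delivers ferritin to the lysosome for iron release, was 30.4 FPKM in both Ch25h_WT libraries and 28.0 and 25.8 FPKM in Ch25h_KO (log2 change -0.17, limma adjusted p = 0.228). Neither gene overlapped between the groups.

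Of 21 tested genes of mitochondrial iron and iron-sulfur clusters, the longest list, 4 were higher and 1 lower at unadjusted p under 0.05, against 20.9% of all tested loci in either direction, and the median log2 change was 0.029. Iscu, the scaffold on which clusters are built, was 120 and 114 FPKM in Ch25h_WT and 149 and 146 FPKM in Ch25h_KO (log2 change 0.33, SE 0.057, limma adjusted p = 0.09998). Fdx1, a ferredoxin, was 10.2 and 9.42 against 13.1 and 12.5 FPKM (log2 change 0.36, SE 0.064, limma adjusted p = 0.108). Isca2, an assembly factor, was 10.3 and 12.8 against 15.1 and 15.3 FPKM, while its paralog Isca1 was 32.4 and 31.9 against 29.03 and 27.46 FPKM (log2 changes 0.38 and -0.18, limma adjusted p = 0.174 and 0.190). The paralogs lay in opposite directions, each without overlap between the groups.

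**Figure D4:**
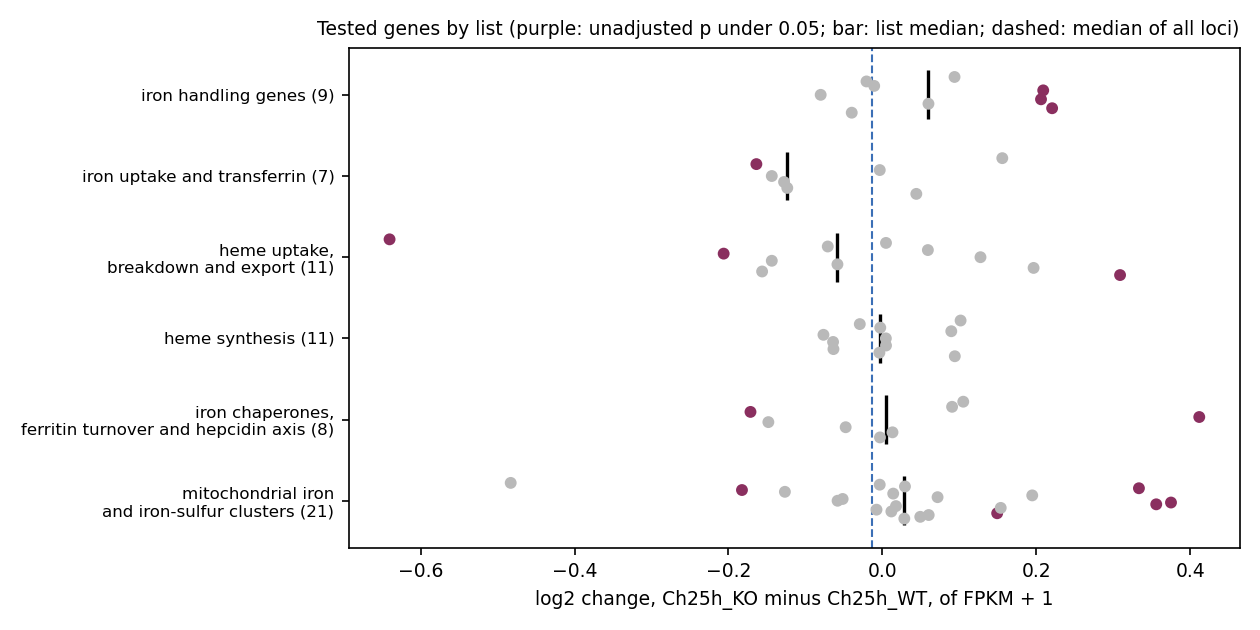
Log2 change of FPKM + 1, Ch25h_KO minus Ch25h_WT, of each tested gene in the iron handling set and the 5 further lists, with the number tested in brackets (purple, unadjusted p under 0.05; bar, list median; dashed line, median of all tested loci at -0.014). The list medians lie between -0.12 and 0.060, and no gene shown passed after adjustment in the main test.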

How the data were processed

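RNA of 4 libraries was sequenced by the submitters. Per the submitters' processing notes, mm9 was the genome build and the tools were Cufflinks 2.2.1, TopHat2 2.0.14 and bcl2fastq. Filters, strandedness, annotation and scaling were not given in the sources used here. A single table was deposited by the authors, whose values fit FPKM; its header does not name the unit. Its 24192 lines were joined into 23735 loci. FPKM are not counts, so no count test was run. Groups come from the sample titles and genotype labels. The other columns of per-sample values numbered 0.

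Differences were tested with limma 3.58.1 (R 4.3.3) on log2(FPKM + 1) over loci averaging 1 FPKM or more, with genotype as the single term, a scale that understates changes of low genes. The procedure was checked on simulated data. Alternatives were pseudocounts of 0.1 and 5, no filter or an average of 5 FPKM or more, trend and robust options, median scaling, a replicate block and each library left out.

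Relative depth was recovered from values under 0.5 FPKM. Against Ch25h_WT replicate 1 it was 0.800, 0.824 and 0.770 for Ch25h_WT replicate 2, Ch25h_KO replicate 1 and Ch25h_KO replicate 2. Of 1617 low loci, 93.1% then held whole multiples of 1 fragment value, within 0.01 fragments in proportion to the multiple. Several fragment values were tried for each locus, and the share that would pass by accident was not computed. The 93.1% is therefore no test of the depths. GENCODE transcript lengths gave the implied depth, which is approximate. mm9 coordinates were not used here. Symbols from RefSeq GRCm38.p6 synonyms matched 4 older names in the lists.

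The members and lists were chosen with earlier results of these data known. Named were all members, Ch25h, Apoe and the 2 genes of smallest p in each further list; Slc48a1, Hmox1, Isca1 and Isca2 were chosen after their values were seen.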

Additional observations from a re-analysis of the deposited data

How the results depend on the processing

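The count of called iron handling genes stayed at 0 in all alternatives run except the trend and robust options, where it was 2 (Slc11a1 and Cp). Over all loci, 44 calls became 317 with a pseudocount of 5, 18 with no filter, 175 among loci averaging 5 FPKM or more, 786 with the trend and robust options and 13 to 21 with a library left out, where a lone library is assumed to vary like the others. With the replicate number as a block, 6 loci and no iron gene were called; same-numbered libraries did not deviate together (correlation 0.012 across loci), so the numbers were not taken as pairs. Of the 57 further iron and heme loci, 7 were called with the trend and robust options, 4 with a pseudocount of 5 and 1 (Lcn2) among loci averaging 5 FPKM or more. Of 99 member values under alternatives, 94 kept direction and side of the threshold, Tfrc and Ireb2 changed sign with a library left out (ranges -0.049 to 0.0079 and -0.14 to 0.11), and the cause was not tested. With a library left out, the log2 differences of the ratios ranged from -0.50 to -0.17 for Slc40a1/Fth1, -0.13 to -0.034 for Tfrc/Fth1, 0.072 to 0.13 for Fth1/Ftl1, 0.021 to 0.20 for Aco1/Ireb2 and, with a change of sign, -0.040 to 0.053 for Slc11a1/Slc11a2. With 2 libraries a group such a move cannot exceed their pooled SD, so it is no sign of stability. Depth limits Slc40a1 most, at 24 to 36 fragments a library.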
